A study of Mus musculus with 8 samples.

Results

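The control arm of this experiment was made of thymic group 2 innate lymphoid cells (ILC2) that carried a retrovirus with green fluorescent protein (GFP) and nothing else, and the comparison described here set the 2 GFP libraries made after 16 h of 4-hydroxy-Tamoxifen against the 2 made after 4 h. These 4 libraries were chosen by their titles, out of 8 in all. The other 4 came from cells that carried GFP together with E47-ER, also after 4 h and 16 h, with 2 libraries for each time. All 8 shared the same background: cells of the thymus of plck-Id1 mice on C57BL/6, stimulated and expanded with IL-33, IL-25 and IL-7 (the design text lists a further factor only as "ILC2"), transduced with MIGR1 and sorted for GFP. Total RNA was sequenced and counted per gene.

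ILC2 are lymphocytes without a rearranged antigen receptor that answer epithelial alarm cytokines such as IL-33 and IL-25 by secreting IL-5 and IL-13. GATA3 and RORα are needed for their development, and ID2 marks the innate lymphoid lineages by holding E proteins in check. E47, a product of Tcf3, is such an E protein, ID1 is an inhibitor of the same family as ID2, and plck denotes the proximal promoter of Lck, which is active in thymocytes. E47-ER joins E47 to the hormone-binding part of the estrogen receptor and is switched on by 4-hydroxy-Tamoxifen. GFP cells got the same drug without the fusion protein, so the comparison asks how the cells of the control arm changed over time. There was no library without the drug and none at 0 h among those analysed here, so time in culture and time in the drug cannot be told apart. No label says whether the replicates came from separate cultures or mice, and the p-values measure the spread between these libraries only, which may be technical.

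The GFP libraries held 15459513 and 18677675 counts at 4 h and 14510001 and 8813782 at 16 h, so that 3 counts, the upper limit that a count of 0 allows, stood for 0.158 to 0.399 CPM in a library, CPM being the count scaled to a library total of 1000000 after TMM scaling. This limit covers counting error only. For comparing genes with each other levels were also scaled by the merged exon length of each gene (TPM, counts per base scaled to the same total in every library). One library, replicate 2 at 16 h, differed from all others as a whole. Its mean correlation with the rest was 0.9543, against 0.9798 to 0.9832 for the other 7, its scaling factor was 0.8536 against 1.011 to 1.033, and the median absolute log2 difference between the replicates was 0.457 at 16 h in GFP cells against 0.126 to 0.151 in the other 3 groups. In replicate 2 the median log2 ratio to the 4 h mean was 0.59 among the genes with the shortest exons (median 737 bases) and -0.36 among those with the longest (median 11786 bases). In replicate 1 the same medians were 0.045 and -0.042, and between the 4 h replicates they were 0.066 and -0.036. Short genes were thus high and long genes low in 1 of the 2 libraries at 16 h, and the counts of called genes and the list medians below are given with and without it. Without it the group at 16 h was a single library, which the model assumed to vary like the others.

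**Figure D1:**
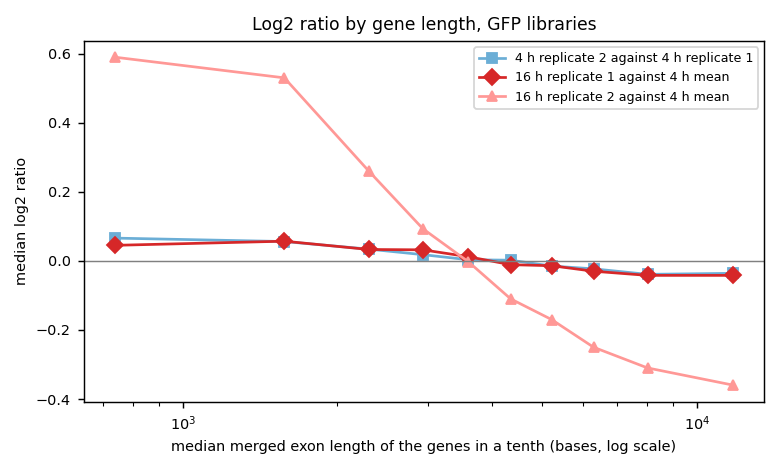
Median log2 ratio (y axis) of the tested genes sorted into 10 groups by merged exon length (x axis, bases, log scale), for replicates 1 and 2 at 16 h against the 4 h mean and for the 4 h replicates against each other. Replicate 2 at 16 h runs from 0.59 to -0.36, while the other lines stay between -0.042 and 0.066.

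The most abundant transcripts of the GFP cells included those of ILC2 cytokines and of granzymes. Gzmb, which encodes the protease granzyme B, took more counts per base than any other protein-coding gene. It stood at 22812 and 25728 CPM at 4 h and at 21822 and 25239 CPM at 16 h, which was 2.15 to 2.61% of all counts, and its length-scaled level at 4 h was 49715 ± 3004 TPM (SD, n = 2). The 16 h values lay within and just below the 4 h values. Il13, which encodes the cytokine behind goblet cell mucus and smooth muscle responses, followed with 20449 ± 76.7 TPM (SD, n = 2). Its values were 8247 and 8494 CPM at 4 h and 8054 and 9833 CPM at 16 h, 1 library below and 1 above the 4 h range. Il5, the eosinophil growth factor, was at rank 6 with 9993 ± 1454 TPM (SD, n = 2). It was measured at 4599 and 5855 CPM at 4 h and 5062 and 7753 CPM at 16 h, so that the times overlapped. Gzma, another granzyme gene, stood at 9522 TPM and Ly6a, which encodes the surface protein Sca-1, at 8605 TPM. The other 10 of the 15 highest were genes that most active cells express: Tmsb4x and Actb of the actin cytoskeleton, B2m of the MHC class I molecule, the elongation factor gene Eef1a1, the ribosomal protein gene Rplp1, Lgals1, Ifitm1 and the mitochondrial genes mt-Co1, mt-Cytb and mt-Nd1. These ranks depend on the length given to a gene. With the median length of the annotated transcripts in place of the merged exons, a choice made after the data were seen, Gzmb was still first but at 18971 TPM, Il13 was at rank 5 with 7800 TPM and Il5 was at rank 21 with 3816 TPM. Protein-coding genes at 1 TPM or more numbered 10776 and 10758 at 4 h and 10812 and 10345 at 16 h.

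Of 16 genes that mark ILC2, 15 passed the filter on low counts and 11 were at 100 TPM or more at 4 h. Among transcription factors, Id2 was highest at 978 TPM, followed by Gata3 at 724 TPM, Batf, an AP-1 factor, at 598 TPM, and Nfil3, a factor of the common innate lymphoid progenitor, at 324 TPM. Bcl11b, needed for ILC2 and T cell identity, was at 54.3 TPM. Rora was lower at 16.9 TPM, and Tcf7, which encodes TCF1, a factor of early ILC and T cell precursors, was at 2.47 TPM. Zbtb16, which encodes PLZF, a factor of ILC precursors, was at 0 in all 4 libraries, as was Rxrg. Among receptors, Il2ra reached 2293 TPM and the costimulatory receptor gene Icos 2190 TPM. Il1rl1, which encodes the IL-33 receptor, stood at 869 TPM, Il7r at 566 TPM and the inhibitory receptor gene Klrg1 at 452 TPM. By contrast Il17rb, which encodes a chain of the IL-25 receptor, was at 7.07 TPM, and Ptgdr2, which encodes the prostaglandin D2 receptor CRTH2, did not pass the filter and was at 0.252 TPM. Among secreted factors, Areg, an epithelial growth factor, was at 1875 TPM, Il10 at 822 TPM, the opioid precursor gene Penk at 582 TPM, Csf2 at 311 TPM, Il9 at 176 TPM and Il4 at 146 TPM. Arg1, often used as an ILC2 marker, was at 3.94 TPM.

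Several genes that define other cell types had no counts, while other members of the same lists were measured. Cd8a and Cd8b1 of T cells, Ms4a1 of B cells, Lyz2 and S100a9 of myeloid cells, Siglech of plasmacytoid dendritic cells, Ncr1 and Tbx21 of NK cells and ILC1, Fcer1a, Ms4a2, Tpsb2 and Mcpt4 of mast cells and basophils, and Foxn1 and Krt5 of thymic epithelium had no count in any of the 4 GFP libraries. Of the members that were measured, Cd3e, a chain of the T cell receptor complex, stood at 27.0 and 29.9 CPM at 4 h and 26.0 and 27.9 CPM at 16 h, and Trac, the constant part of the receptor's alpha chain, between 2.59 and 3.96 CPM. Il22, which encodes a cytokine linked to ILC3, was measured at 60.9 and 69.6 CPM at 4 h and 73.8 and 74.4 CPM at 16 h. Mcpt8, a basophil protease gene, ran from 37.2 to 132 CPM with replicate 2 at 16 h highest. The chemokine receptor gene Xcr1, listed for dendritic cells, was at 56.6 and 57.7 CPM at 4 h and 49.9 and 127 CPM at 16 h, again with replicate 2 highest. Of the list for thymic stroma, which summed to between 134 and 158 CPM per library, Pecam1, an endothelial and leukocyte adhesion gene, held nearly all, with 146 and 144 CPM at 4 h and a log2 fold change of 0.055 without replicate 2. Cd79b, a chain of the B cell receptor complex, ran from 5.75 to 12.9 CPM, and Gzmb, the gene with the highest level here, also stands in the list for NK cells and ILC1. The 10 genes of the T cell list summed to between 250 and 426 CPM in these libraries, highest in replicate 2 at 16 h, with Lat, a signalling adaptor that is not confined to T cells, as the largest member. In bulk RNA, more cells of a type and more RNA per cell cannot be told apart.

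**Figure D2:**
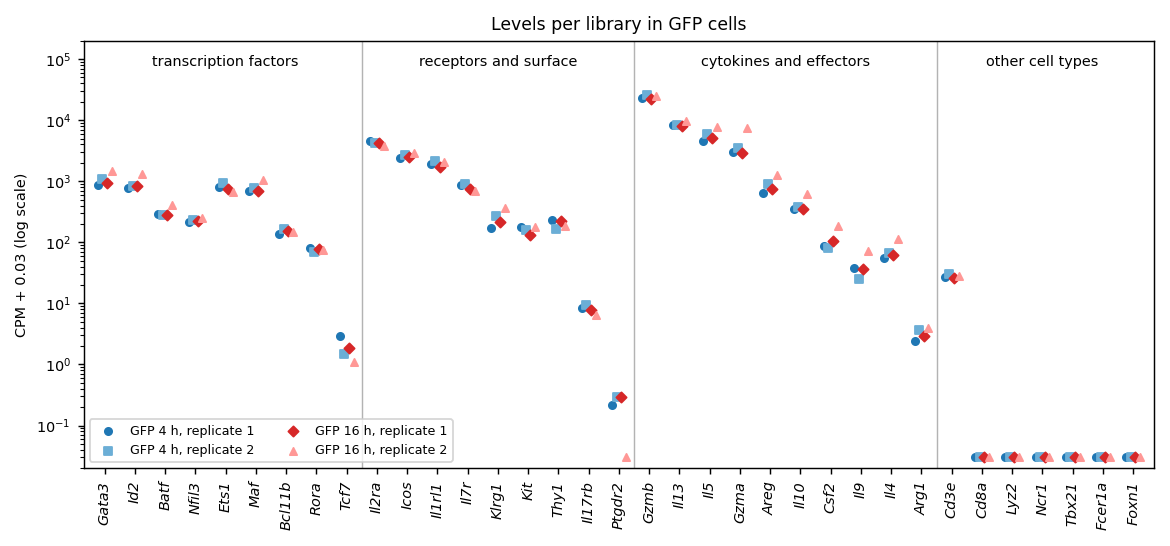
Levels of ILC2 genes and of markers of other cell types (x axis) in the 4 GFP libraries, as CPM plus 0.03 on a log axis, by group. Points of 1 gene lie close together for most genes, Gzmb is highest, and Cd8a, Lyz2, Ncr1, Tbx21, Fcer1a and Foxn1 sit at 0 in every library.

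The genes of the construct checked the labels as far as they could. Tcf3, the gene of E47, was at 79.3 and 81.3 CPM at 4 h and 87.5 and 67.5 CPM at 16 h, and the times overlapped. In the E47-ER libraries Tcf3 ran from 146 to 170 CPM. Esr1, the estrogen receptor gene, was between 0.211 and 0.930 CPM in the GFP libraries, close to the limit of detection. It was between 43.7 and 54.4 CPM in the E47-ER libraries. Id1, the transgene of these mice, was at 36.8 and 23.6 CPM at 4 h and 30 and 13.8 CPM at 16 h, and its replicates differed more than its times. The counts cannot separate the transgene from the endogenous Id1 gene.

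With all 8 libraries in the model, 0 of 13644 tested genes (0%) differed between 16 h and 4 h in GFP cells at an adjusted p under 0.05 in edgeR's quasi-likelihood test. At an unadjusted p under 0.05 there were 1238, and DESeq2 also called 0, with 1253 at an unadjusted p under 0.05. Without replicate 2 at 16 h, edgeR called 1 of 14146 genes (0.00707%), with 881 at an unadjusted p under 0.05. Without replicate 1 at 16 h, so that the library with high short genes stood alone for its group, the count was 6034 of 14435 (41.8%), 3087 higher and 2947 lower. These shares were 21.4% and 20.4% of the genes tested. The count thus turned on which of the 16 h libraries was used, and that of 6034 compares 1 library with the 4 h pair. Without a filter on low counts the count with all 8 libraries was 305 of 29929 genes, 288 of them higher.

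The 1 called gene was Rpl17-ps4 (ENSMUSG00000084345, chromosome 4, 63895545 to 63896099, GRCm38), a processed pseudogene of the ribosomal protein gene Rpl17 and named here after its values were seen. Its counts were 8 and 20 at 4 h and 598 and 16 at 16 h, and in E47-ER cells 7, 10, 12 and 17. A single library, replicate 1 at 16 h, therefore carried the whole difference (log2 fold change 5.63 ± 0.269 SE, adjusted p = 6.28e-12 in edgeR without replicate 2). Rpl17 has near-identical copies, and the sources used here do not say how the authors' counting split reads among them.

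The 95% intervals give the range of change that the model allowed for each gene. Without replicate 2 they rest on 1 library at 16 h and on the spread within the other groups. The median difference of 0.457 between the 2 GFP libraries at 16 h does not enter them. They therefore may not cover differences between cultures. Without replicate 2, the interval of the fold change lay within 2-fold in either direction for 10455 of 14146 genes (73.9%) and within 1.5-fold for 8218 (58.1%). Among the 5728 genes with a mean log2 CPM of 5 or more, 5703 (99.6%) had an interval within 2-fold, 5567 (97.2%) within 1.5-fold, and 0 had an absolute log2 fold change over 1. With all 8 libraries the shares over all tested genes were 64.3% and 30.5%. Among the 5687 genes with a mean log2 CPM of 5 or more in that fit they were 85.2% and 49.3%. An absolute log2 fold change over 1 was then found for 74 of these 5687. Genes with a mean log2 CPM under 1 were poorly bounded, with intervals within 2-fold for 1.95% of 3019 without replicate 2.

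The transcription factor genes of ILC2 lay close to their 4 h levels in replicate 1 at 16 h. In replicate 2 Gata3 and Id2 were above both 4 h values. Of 23 tested transcription factors 0 were called in either fit, and without replicate 2 their log2 fold changes ran from -0.24 (Tcf7) to 0.086 (Pparg), with a median of -0.0085 beside -0.0017 over all tested genes. For 22 of the 23 the interval stayed within 1.5-fold. Gata3 was measured at 882 and 1077 CPM at 4 h and 949 and 1477 CPM at 16 h. The first of the 16 h values lay between the 4 h values, and the log2 fold change without replicate 2 was -0.046 (95% interval -0.26 to 0.17, adjusted p = 0.956 in edgeR). Id2 stood at 772 and 850 CPM at 4 h and 823 and 1312 CPM at 16 h, with a log2 fold change of 0.020 without replicate 2 and 0.40 with it. Rora gave 81.0 and 69.2 CPM at 4 h and 78.5 and 75.2 CPM at 16 h, all 16 h values within the 4 h range. Ets1, an activator needed for ILC2 expansion, came after Tcf7 in the order of fold changes without replicate 2, at -0.20, and went from 796 and 921 CPM at 4 h to 747 and 669 CPM at 16 h. Both 16 h libraries were below both at 4 h, and the difference did not pass the test (log2 fold change -0.28, adjusted p = 0.5 with all 8 libraries in edgeR).

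Receptor genes had a negative median in replicate 1 at 16 h and a median near 0 in replicate 2. Of 36 tested, 0 were called, and without replicate 2, 6 had a positive log2 fold change, with a median of -0.089. In all tested genes 7029 of 14146 were positive. With all 8 libraries 15 of the 36 were positive and the median was -0.074, and with replicate 2 alone at 16 h the median was 0.0031. Both 16 h libraries lay below both 4 h libraries for 7 receptors and above for 2, beside 18% and 18.6% of all tested genes, so the share below was near that of all genes. Il7r, which encodes the IL-7 receptor, was measured at 882 and 912 CPM at 4 h and 735 and 687 CPM at 16 h. The times did not overlap, and the log2 fold change was -0.33 with all 8 libraries and -0.29 without replicate 2 (95% interval -0.48 to -0.10, adjusted p = 0.753 in edgeR). Il1rl1 was at 1928 and 2147 CPM at 4 h and 1680 and 2059 CPM at 16 h, overlapping through replicate 2. Kit, the stem cell factor receptor gene, was at 177 and 160 CPM at 4 h and 130 and 175 CPM at 16 h, and only replicate 1 lay below the 4 h values. Il2ra stood at 4626 and 4263 CPM at 4 h and 4188 and 3782 CPM at 16 h, lower in both libraries, with a log2 fold change of -0.16 with all 8 (adjusted p = 0.619 in edgeR). Klrg1 differed more between the 4 h replicates, 170 and 266 CPM, than replicate 1 at 16 h did from either, at 216 CPM.

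**Figure D3:**
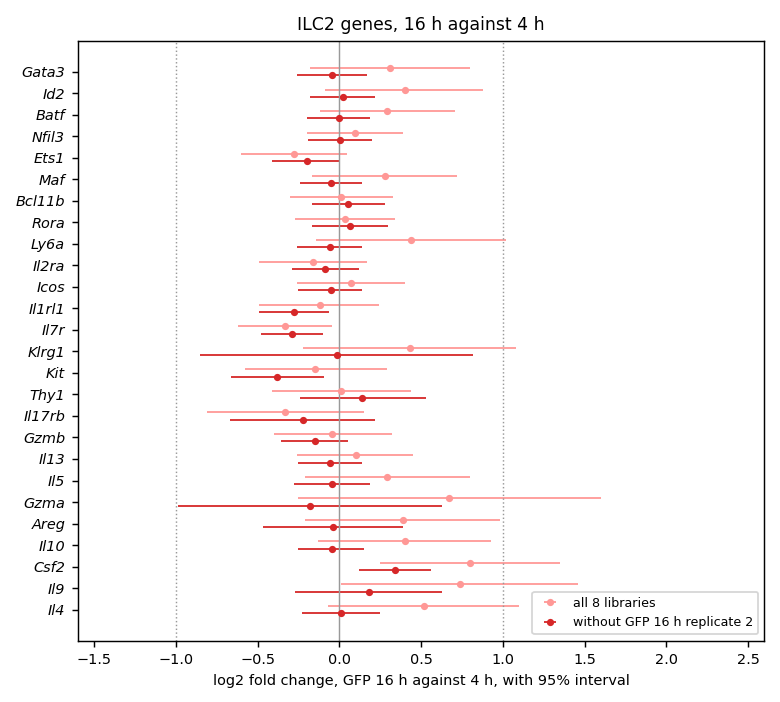
Log2 fold change of ILC2 genes between 16 h and 4 h in GFP cells (x axis) with 95% intervals, with all 8 libraries and without replicate 2 at 16 h, and dotted lines at 2-fold. Without replicate 2 every interval lies within 2-fold, Klrg1 and Gzma have the widest, and the Csf2 interval lies above 0 in both fits.

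Cytokine and effector genes differed between the 2 libraries at 16 h. Their median log2 fold change was 0.23 with all 8 libraries and -0.053 without replicate 2, with 26 and 14 of 36 tested members positive and 0 called in both fits. The exons of these genes are short, with a median length of 1648 bases beside 3971 over all tested genes, and with a correction for transcript length the median with all 8 libraries was 0.023. Both 16 h libraries lay above both at 4 h for 4 of the 36 members and below for 1, beside 18.6% and 18% of all tested genes, so neither share was above that of all genes. Csf2, which encodes the growth factor GM-CSF, was 1 of the 4, from 88.4 and 80.6 CPM to 107 and 188 CPM. Its log2 fold change was 0.80 with all 8 libraries and 0.34 without replicate 2 (95% interval 0.12 to 0.56, adjusted p = 0.753 in edgeR). Il9 was at 38.6 and 25.2 CPM at 4 h and 36.0 and 71.0 CPM at 16 h, so that replicate 1 fell between the 4 h values. Il4 gave 56.2 and 65.9 CPM at 4 h and 61.5 and 114 CPM at 16 h in the same order. Areg was at 637 and 916 CPM at 4 h and 757 and 1276 CPM at 16 h, and Gzma at 3020 and 3494 CPM at 4 h and 2883 and 7480 CPM at 16 h. In each of these 4 genes the highest value was that of replicate 2 at 16 h.

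Cell cycle genes were nearly all higher in replicate 1 at 16 h, while their medians in replicate 2 were negative. Without replicate 2, 35 of 37 S phase genes had a positive log2 fold change with a median of 0.19, and 35 of 37 genes of G2 and M phase with a median of 0.16. Of both lists 0 genes were called, and the median over all tested genes was -0.0017. Replicate 1 lay above both 4 h libraries for 34 S phase genes and 32 G2 and M phase genes, where 34.5% of all tested genes did, and below for 0 and 1, where 33% did. For 9 and 10 of the 37 genes both 16 h libraries lay above both at 4 h, beside 18.6% of all tested genes. With replicate 2 alone at 16 h the medians were -0.28 and -0.38, while with all 8 libraries they were 0.025 and -0.061. Both comparisons use the same 4 h libraries. The 4 h replicates differed from each other by medians of 0.013 and -0.050. Mki67, which encodes the proliferation antigen Ki-67, was at 277 and 254 CPM at 4 h and at 310 and 197 CPM at 16 h, on opposite sides of the 4 h range. Plk1, a mitotic kinase gene, had 49.9 and 47.2 CPM at 4 h and 63.4 and 36.3 CPM at 16 h, also on opposite sides. Pcna, the replication clamp gene, was above the 4 h values of 220 and 222 CPM in both 16 h libraries, at 258 and 289 CPM. In E47-ER cells the medians of the same lists between 16 h and 4 h were 0.18 and 0.19, from libraries that share none with the GFP comparison.

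Genes of cholesterol synthesis gave the reverse picture in replicate 1, with 3 of 24 positive and a median log2 fold change of -0.20 without replicate 2, and 0 called. The median with all 8 libraries was 0.0057. For 9 of the 24, both 16 h libraries lay below both at 4 h, and for 1 above, beside 18% and 18.6% of all tested genes. The 4 h replicates themselves differed by a median of 0.24 for this list, and replicate 2 alone gave 0.24 against the 4 h mean. Sc5d, a desaturase gene of the last steps, was at 92.1 and 99.5 CPM at 4 h and 74.7 and 117 CPM at 16 h. Idi1, an isomerase gene early in the pathway, was at 120 and 156 CPM at 4 h and 114 and 235 CPM at 16 h. In both of these the 16 h libraries fell on either side of the 4 h pair. Stard4, a sterol carrier gene, was among the 9 below in both libraries, with 103 and 111 CPM at 4 h and 88 and 102 CPM at 16 h.

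Genes of the LXR sterol sensors and of fatty acid synthesis had negative medians in both 16 h libraries. Of 24 tested members 0 were called, the median was -0.18 with all 8 libraries and -0.15 without replicate 2, and 5 and 4 members were positive. Both 16 h libraries lay below both at 4 h for 11 of the 24 and above for 0, beside the 18% of all tested genes given above. The 4 h replicates differed by a median of 0.041, and in E47-ER cells the median with time was -0.073. Abcg1, a cholesterol exporter gene and a known LXR target, was at 86.8 and 71.9 CPM at 4 h and 63.9 and 62.5 CPM at 16 h, below in both libraries (log2 fold change -0.33 with all 8 libraries and -0.31 without replicate 2, adjusted p = 0.5 and 0.756 in edgeR). Abca1, another exporter gene and LXR target, was at 29.9 and 29.8 CPM at 4 h and 24.9 and 23.1 CPM at 16 h, also below in both. Mylip, an LXR target whose product marks the LDL receptor for degradation, was at 17.9 and 16.2 CPM at 4 h and 10.9 and 14.1 CPM at 16 h. Fasn, the fatty acid synthase gene, was at 406 and 417 CPM at 4 h and 398 and 240 CPM at 16 h, with replicate 1 close to the 4 h pair.

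Genes of ribosome biogenesis and MYC targets were positive for 42 of 47 without replicate 2, with a median of 0.15, and for 30 of 47 with all 8 libraries, with a median of 0.11; 0 were called. Both 16 h libraries lay above both at 4 h for 16 of the 47 and below for 0, beside 18.6% and 18% of all tested genes. Between the 4 h replicates the median was -0.16. Fbl, which encodes the nucleolar methyltransferase fibrillarin, was at 52.6 and 43.1 CPM at 4 h and 63.6 and 63.4 CPM at 16 h, above in both libraries (log2 fold change 0.41 in both fits, adjusted p = 0.753 in edgeR without replicate 2). Nhp2, a protein gene of small nucleolar particles, was at 88.8 and 90.5 CPM at 4 h and 112 and 196 CPM at 16 h, higher in both. In E47-ER cells the median of this list was -0.24. Cytosolic ribosomal protein genes had a median of 0.71 with all 8 libraries and 0.10 without replicate 2, and nuclear genes of the respiratory chain 0.65 and 0.091. Their members are short, with median lengths of 1754 and 1928 bases, and in replicate 2 alone the medians were 1.09 and 1.07. With a correction for transcript length the medians with all 8 libraries were 0.37 for both lists. Both 16 h libraries lay above both at 4 h for 59 of 80 and 27 of 43 genes, and below for 1 and 0. Replicate 1 lay above both 4 h libraries for 59 and 30 genes, where 34.5% of all tested genes did. It lay below for 5 and 6, where 33% did.

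Interferon response genes had a median log2 fold change of 0.22 without replicate 2 and -0.094 with all 8 libraries. The 4 h replicates differed by a median of -0.57 for these genes, a larger difference than that between the times, and only 22 of 40 intervals were within 2-fold without replicate 2. Bst2, which encodes the antiviral protein tetherin, was at 83.6 and 69.8 CPM at 4 h and 102 and 129 CPM at 16 h. Irf7, a transcription factor gene of the same response, was at 58.6 and 37.9 CPM at 4 h and 68.2 and 19.7 CPM at 16 h. The first was higher in both 16 h libraries and the second split around the 4 h pair.

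The circadian clock list had 0 called of 19, with medians of -0.25 with all 8 libraries and -0.050 without replicate 2. Its genes are long, with a median length of 5520 bases beside 3971 over all tested genes. Long genes were low in replicate 2, and with a correction for transcript length the median with all 8 libraries was -0.15. For 7 of the 19, both 16 h libraries lay below both at 4 h, and for 2 above, beside 18% and 18.6% of all tested genes. Per1, a light- and serum-responsive repressor gene, was at 32.3 and 27.8 CPM at 4 h and 23.1 and 26.2 CPM at 16 h, below in both. Clock, an activator gene, was at 37.1 and 29.6 CPM at 4 h and 25 and 28.6 CPM at 16 h, also below in both (log2 fold change -0.32 with all 8 libraries). Nr1d1, a repressor gene, was at 3.03 and 1.43 CPM at 4 h and 2.55 and 0.532 CPM at 16 h. Dbp, an output gene of the clock, was at 10.9 and 10.7 CPM at 4 h and 10.1 and 11.7 CPM at 16 h, so that its times overlapped. The other members ran from 0 to 286 CPM.

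In each of the 40 lists 0 members were called in either fit. Without replicate 2 the medians not yet given were as follows. Negative medians were those of JAK-STAT feedback and target genes -0.055, NF-kB genes -0.023, immediate early and AP-1 genes -0.052, G1 cyclins and CDK inhibitors -0.067, and genes of quiescence -0.083, while glycolysis and hypoxia genes were at 0.0072. Costimulatory and inhibitory receptors stood at -0.13, chemokine receptors and adhesion genes at -0.077, lysosome and autophagy genes at -0.085, and genes tied to estrogen, xenobiotics and p53 at -0.087. On the positive side were replication-dependent histone genes at 0.21, heat shock genes at 0.11, tRNA synthetase genes at 0.10, ATF4 and amino acid genes at 0.081 and the E protein and Id genes at 0.038. ER stress, MHC, BCL2 family and mitochondrially encoded genes were at 0.0069, 0.0081, 0.0078 and -0.0039. The histone genes are short and poorly polyadenylated, and only 3 of their 18 intervals were within 2-fold. The histone genes had a median of 0.58 with all 8 libraries, and the E protein and Id genes of 0.21, while chemokine receptors and adhesion genes, NF-kB genes and costimulatory and inhibitory receptors had medians of -0.20, -0.10 and -0.10. Mitochondrially encoded, MHC, BCL2 family and ER stress genes then stood at 0.14, 0.11, 0.11 and 0.10, heat shock, tRNA synthetase and ATF4 genes at 0.075, 0.073 and 0.042, and lysosome genes at 0.028. JAK-STAT, immediate early, G1, quiescence, glycolysis and estrogen-related genes stood at 0.0081, -0.025, -0.019, -0.0052, -0.0018 and -0.056. Mitochondrially encoded genes are short, with a median length of 955 bases. With a correction for transcript length, mitochondrially encoded, MHC, BCL2 family and ATF4 genes had medians of -0.23, -0.023, -0.037 and -0.031 with all 8 libraries. Those of ER stress, heat shock, tRNA synthetase and lysosome genes were then 0.035, 0.15, 0.086 and 0.039.

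**Figure D4:**
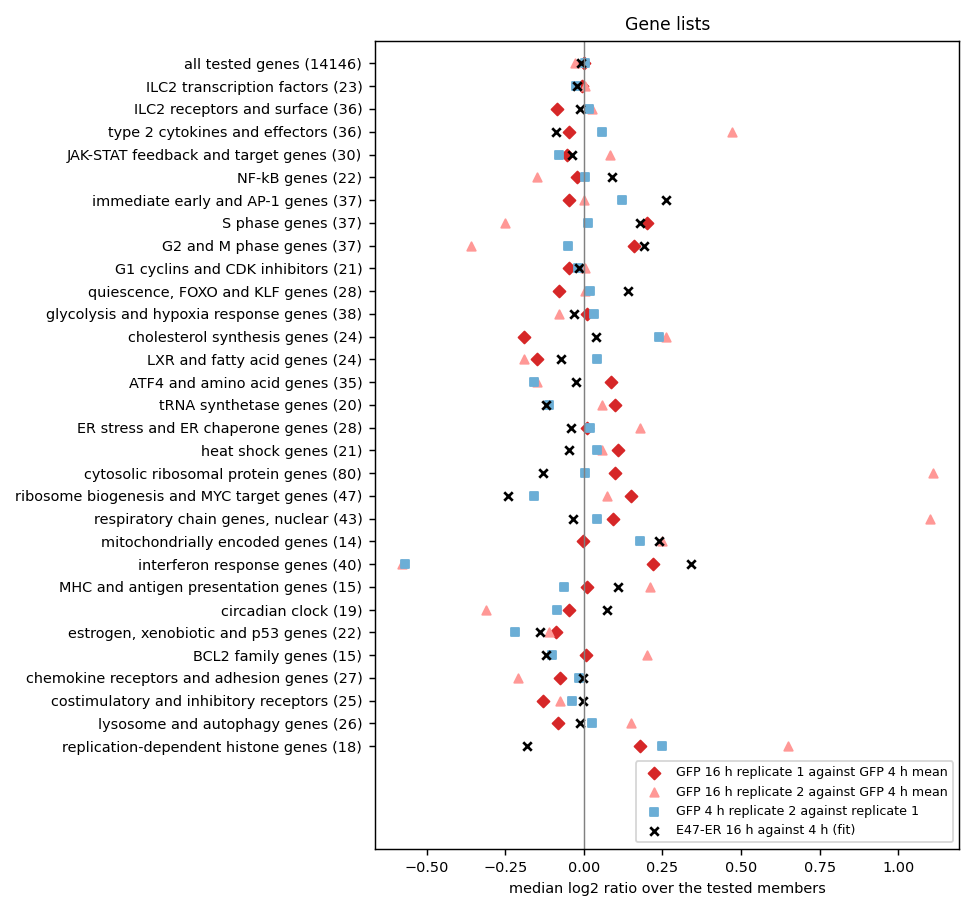
Median log2 ratio over the tested members (number in brackets) of each list with at least 14 tested members, for replicates 1 and 2 at 16 h against the 4 h mean, for the 4 h replicates against each other, and for E47-ER cells from 4 h to 16 h. Ribosomal protein and nuclear respiratory chain genes lie at 1.11 and 1.10 in replicate 2 and at 0.10 and 0.092 in replicate 1.

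Since no gene of known function passed the test, genes with small p-values are given as values. They were the 5 per fit and direction with the smallest p among genes that met set conditions. A mean log2 CPM of 3 or more was needed, with every 16 h library of the fit on the same side of both at 4 h. Predicted genes, pseudogenes, ribosomal RNA and antigen receptor segments were left out. For these genes, lying on 1 side of the 4 h pair was thus a condition of the choice, not a result. In both fits they included Hist1h2ao, a histone H2A gene, with 46.5 and 45.9 CPM at 4 h and 67.2 and 86.1 CPM at 16 h (log2 fold change 0.73 ± 0.158 SE with all 8 libraries, 0.54 ± 0.118 SE without replicate 2, adjusted p = 0.5 and 0.397 in edgeR). This gene has near-identical copies, and its exons overlap another gene, so its counts are uncertain. Pfdn2 and Pfdn6, which encode subunits of the chaperone prefoldin, were also among the higher genes of both fits. Pfdn2 had 39.6 and 41.9 CPM at 4 h and 55.2 and 79.0 CPM at 16 h. Pfdn6 stood at 48.9 in both 4 h libraries and at 66.8 and 95.2 CPM at 16 h. Without replicate 2 the list of higher genes added Ranbp1 of the nuclear transport system, and with all 8 libraries Tmem238 and Hist1h2ap. Lower with all 8 libraries were Zfp790, Washc4, Map3k2, Zfp101 and Mbnl2, with log2 fold changes from -0.74 to -0.43. Merged exon lengths were 480 to 1937 bases for the higher genes of that fit and 3658 to 13950 for the lower ones. With a correction for transcript length, log2 fold changes went from 0.73 to 0.24 for Hist1h2ao and from 0.71 to 0.47 for Pfdn2. Those of Pfdn6 went from 0.72 to 0.36 and those of Mbnl2 from -0.43 to -0.24. All became smaller in size except Zfp790 (-0.61 to -0.63). Washc4, of the endosomal WASH complex, was at 67.9 and 68.9 CPM at 4 h and 52.3 and 41.6 CPM at 16 h, and Mbnl2, a splicing regulator gene, at 57.6 and 59.6 CPM and then 45.8 and 41.1 CPM. That both lay below the 4 h values in both libraries was required by the choice. Without replicate 2 the lower genes chosen in this way were P2ry10, a receptor gene for lysophospholipids, the inhibitory receptor genes Lilrb4a and Lilr4b, the integrin gene Itgb8 and Paxbp1. P2ry10 had 127 and 126 CPM at 4 h and 89.5 and 155 CPM at 16 h, with the 16 h libraries on opposite sides. Lilrb4a was at 674 and 557 CPM at 4 h and 441 and 195 CPM at 16 h, lower in both, with log2 fold changes of -0.95 and -0.48 with and without replicate 2 and adjusted p = 0.5 and 0.639 in edgeR. Lilr4b was at 1124 and 1038 CPM at 4 h and 813 and 897 CPM at 16 h, lower in both. Both Lilr genes are close relatives and overlap another annotated gene, so reads may be shared between them.

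The same times compared in E47-ER cells gave 2 called genes of 13644 (0.0147%) with all 8 libraries and 435 of 14146 (3.08%) without GFP replicate 2 at 16 h, 246 higher (1.74%) and 189 lower (1.34%). Of these 435, 0 were called in GFP cells. In GFP cells, without replicate 2, the 246 had a median log2 fold change of 0.057 and 159 of them (64.6%) were positive, while the 189 had a median of -0.14 and 146 (77.2%) were negative. Over all tested genes 49.7% were positive. In E47-ER cells the medians of the same genes were 0.55 and -0.50. No library is shared between the GFP and the E47-ER comparison of times. A direct test of whether the change with time differed between the cell kinds called 0 of 13644 genes (0%) with all 8 libraries, and 6 of 14146 (0.0424%) without replicate 2, 3 in each direction (0.0212% each). DESeq2 called 7 without replicate 2. With all 8 libraries the smallest p-values for the difference belonged to Gm22009, Cd24a, Rmrp, CT010467.1 and Mettl1 on the side of a more positive change in GFP cells and to Plxnb1, Ctse, Kifc3, Slc27a1 and Cmklr1 on the other, each at an adjusted p of 0.699 in edgeR. The rule by p added Srm and Gm24187 on the first side and Cd63 and Ighm on the second without replicate 2, none of them called.

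Among those 6 genes, 3 had a more positive change with time in E47-ER than in GFP cells. Ptprs, a receptor phosphatase gene, was at 18.1 CPM in both GFP libraries at 4 h and at 19.1 and 5.98 CPM at 16 h. In E47-ER cells it went from 16.2 and 14.4 CPM to 50.6 and 49.9 CPM, above every GFP library. The difference of log2 fold changes, GFP minus E47-ER, was -1.63 ± 0.182 SE (adjusted p = 0.000117 in edgeR without replicate 2). Ctsl, which encodes the lysosomal protease cathepsin L, was at 25.4 and 36.3 CPM and then 26.9 and 56.6 CPM in GFP cells, and at 262 and 261 CPM and then 819 and 775 CPM in E47-ER cells (difference -1.80 ± 0.196 SE, adjusted p = 0.000905 in edgeR). The E47-ER level was above every GFP library already at 4 h. Lgals9, the galectin-9 gene, stood at 160 and 163 CPM at 4 h and 159 and 163 CPM at 16 h in GFP cells, the 4 values being almost equal, and at 284 and 261 CPM and then 480 and 436 CPM in E47-ER cells. Its difference was -0.76 ± 0.128 SE (adjusted p = 0.0137 in edgeR). The other 3 had a more negative change in E47-ER cells. Cd24a, a surface glycoprotein gene, was at 116 and 130 CPM and then 122 and 156 CPM in GFP cells, and at 83.5 and 80.8 CPM and then 48.8 and 41.6 CPM in E47-ER cells. Nupr1, a stress-induced nuclear protein gene, was at 172 and 188 CPM and then 196 and 364 CPM in GFP cells, and at 91.8 and 104 CPM and then 64.0 and 59.0 CPM in E47-ER cells. Rpl17-ps4 was the last of the 6, through replicate 1 at 16 h described above. The differences with all 8 libraries were -2.18 for Ptprs, -1.19 for Ctsl, -0.75 for Lgals9, 1.04 for Cd24a, 1.31 for Nupr1 and 4.14 for Rpl17-ps4, each at an adjusted p of 0.699 in edgeR. In GRCm38 the genes lie on chromosome 17 from 56412426 to 56476483 (Ptprs), chromosome 13 from 64359337 to 64370890 (Ctsl), chromosome 11 from 78962974 to 78984946 (Lgals9), chromosome 10 from 43578284 to 43584265 (Cd24a) and chromosome 7 from 126623249 to 126630861 (Nupr1).

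**Figure D5:**
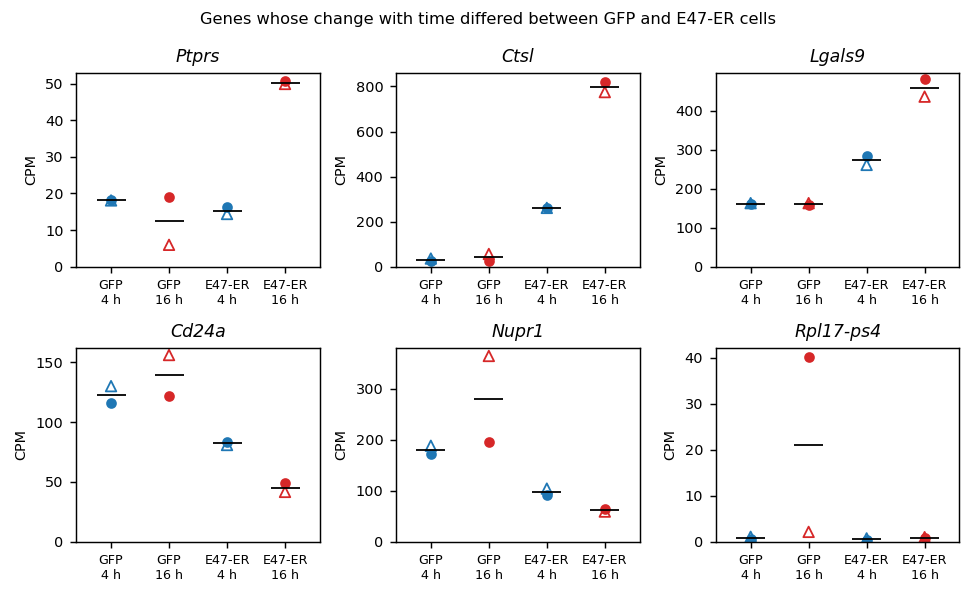
CPM (y axis, from 0) of the 6 genes by cell kind and time, with filled circles for replicate 1, open triangles for replicate 2 and a line at the mean of the pair. In GFP cells Ptprs, Ctsl and Lgals9 stay below every E47-ER value at 16 h, and Rpl17-ps4 is high in 1 library only.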

How the data were processed

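The deposited values were raw read counts per Ensembl gene, whole numbers that the authors had not normalized, for 50686 genes in 8 libraries. The submitters' processing notes name mm10 and DESeq2, the latter with no version or role. Which aligner, counter, strand setting and annotation release the authors chose is not given in the sources used here. Gene symbols and lengths came from GENCODE M21 (GRCm38), which matched 50462 IDs. Library totals ran from 8813782 to 18677675 counts.

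The main test was that of edgeR 4.0.16 in R 4.3.3 (TMM scaling, filterByExpr with a minimum count of 10, robust quasi-likelihood fit of all 8 libraries with 1 mean per group) with Benjamini-Hochberg adjustment and calls at an adjusted p under 0.05. The fit was repeated without GFP replicate 2 at 16 h. Standard errors are the log2 fold change over the square root of F. The procedure was tested on simulated data. The comparison, the 40 gene lists and the rule for named genes were chosen with earlier results of these data known. Named were, per fit and direction, up to 12 called genes, or the 5 with the smallest p where fewer than 5 were called. These needed a mean log2 CPM of 3 or more and every 16 h library used on the same side of both at 4 h. Predicted genes, pseudogenes, ribosomal RNA and antigen receptor segments were left out of them. Also named were the genes with the smallest p for the difference, the 15 highest length-scaled levels, and Id1, Tcf3 and Esr1. Members of the ILC2, cytokine and clock lists were given by value or range. Rpl17-ps4, members of other lists and the clock and ILC2 members shown as examples were picked after their values were seen. Some genes that the rule names are not reported here. DESeq2 1.42.0, limma 3.58.1 and other scalings, filters and libraries were alternatives.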

Additional observations from a re-analysis of the deposited data

Results flagged for a closer look

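Without GFP replicate 2 at 16 h, the change from 4 h to 16 h differed between GFP and E47-ER cells by the test of the difference itself in edgeR for 6 genes. The differences in log2 fold change, GFP minus E47-ER, were -1.63 for Ptprs, -1.80 for Ctsl, -0.76 for Lgals9, 0.87 for Cd24a, 0.80 for Nupr1 and 5.01 for Rpl17-ps4. With all 8 libraries, 0 genes passed the same test, and all 6 had an adjusted p of 0.699. In the first 5, the 1 GFP library left at 16 h, replicate 1, lay within or near the 4 h values. Replicate 2, left out of that fit, lay below them for Ptprs, above them for Ctsl, Cd24a and Nupr1, and close to them for Lgals9. With replicate 1 alone at 16 h, the larger change with time was in the E47-ER libraries. For Rpl17-ps4 it was in 1 GFP library.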

How the results depend on the processing

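The count of genes called between 16 h and 4 h in GFP cells was 0 under all settings that kept both 16 h GFP libraries apart from the unfiltered table, where it was 305 (288 higher and 17 lower, of 29929 genes). Without 1 library each it ran from 0 to 6034. With replicate 2 left out, a length correction, DESeq2, RLE factors and library totals each gave 1, and with replicate 2 alone and a length correction it was 4823 (chosen after seeing the data, as were the other settings that combine 2 choices). For E47-ER cells the count of 2 became 0 with library totals, with a minimum count of 30 and with the replicate block, 53 without a filter, 24 in DESeq2, 377 with voom quality weights and 957 with only the 4 E47-ER libraries. Leaving out 1 library gave 0 to 440. Without GFP replicate 2 it was 537 with a length correction, 236 in DESeq2, 420 with RLE factors and 425 with library totals, and 552 with replicate 2 alone and a length correction. The difference of the time effects gave 0 with all libraries, 0 to 5124 with 1 left out, 53 without a filter, and without GFP replicate 2 it gave 8 with a length correction, 7 in DESeq2, 6 with RLE factors and 8 with library totals; replicate 2 alone with a length correction gave 4225. The cause was not tested. The replicate block, which pairs libraries by replicate number, called 0 genes in GFP cells; the same-numbered deviations of the 4 h and 16 h GFP libraries correlated at 0.0281 and those of E47-ER cells at 0.0404, and the labels do not say that the numbers pair samples. Scaling by library totals only moved the median log2 fold change of all genes by -0.11, and directions above are relative to the TMM median. With replicate 2 alone, P2ry10 turned from -0.056 to 0.27 (it was -0.50 without that library), and with a length correction as well to 0.15; Hist1h2ao then stood at -0.15, Itgb8 at 0.13 and the difference of Rpl17-ps4 at -0.23. Depth limits genes with a mean log2 CPM under 1, whose intervals were widest.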
